A study of Homo sapiens with 24 samples.

Results

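NF-kB subunits, their feedback inhibitors and a few of their best known target genes were followed at the RNA level in mammary epithelial cells in which a MYC fusion protein was switched on. The set has 10 genes, chosen by name: the rows of the deposited count table whose Ensembl identifiers map to NFKB1, NFKB2, REL, RELB, NFKBIA, NFKBIZ, TNFAIP3, BIRC3, TNFAIP2 and ICAM1. These genes, and the lists used further below, were chosen with earlier results of these data known. The shares of all genes printed beside their counts are therefore a background and not a test. All 10 symbols were found among the 60668 rows, and all 10 were among the 22158 genes that passed the filter on low counts.

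MCF-10A is an immortalised, non-tumorigenic human mammary epithelial line that forms hollow spheres (acini) on Matrigel, a basement membrane extract. The study grew this parental line and a derivative that carries MYC-ER, in which MYC, a transcription factor of growth, is joined to the oestrogen receptor's ligand-binding domain, as 3D cultures, and sequenced 24 poly(A)-selected, stranded libraries. From day 3, 4-hydroxytamoxifen (4-OHT), the ligand that activates the fusion, was given at 1 uM for 48, 24, 8 or 0 h, and every culture was collected on day 5. The 8 groups are MYC-ER cells at 0, 8, 24 and 48 h and parental cells at 0, 8, 24 and 48 h, with 3 replicates each. The 0 h groups received no 4-OHT, and all groups were of the same culture age. The labels do not give the promoter that drives the fusion, whether its MYC part is human or mouse, or whether the MYC-ER line is a single clone. They speak of wells in triplicate and do not say that replicates came from separate experiments, so the p-values below measure only the spread between these samples, which may be technical.

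Total counts per library ran from 136860029 to 182438505, a range of 1.33-fold, and the common biological coefficient of variation was 0.151. Levels are given as CPM, counts divided by the TMM-scaled library size, and 3 counts in a library, the limit that a count of 0 allows, correspond to at most 0.0219 CPM. These limits cover counting error only. The 8 mammary epithelial markers summed to between 9737 and 28910 CPM in every library, with KRT5, a basal keratin, leading in every group. The fibroblast list, nearly all of it COL1A1, summed to between 213 and 221 CPM in untreated MYC-ER cells and between 54.3 and 106 CPM in the other groups, and COL1A2 was at 0 or under the limit in all 4 MYC-ER groups. The leukocyte list, nearly all of it CD68, CD14 and ITGAM, summed to between 12.8 and 26.7 CPM, with CD3E at 0 or under the limit in all 8 groups. CD68 led it, with a mean of up to 21.9 CPM (MYC-ER 8 h), except in MYC-ER cells at 48 h, where ITGAM led at 6.01 CPM. CD14 reached a mean of 7.56 CPM in untreated parental cells. The endothelial list summed to at most 2.99 CPM. The row for MYC stood at 387 ± 8.02 CPM (SD, n = 3) in untreated MYC-ER cells and 532 ± 68.7 CPM (SD, n = 3) in untreated parental cells. Whether reads of the fusion were counted in it is not known, so it does not check the labels. Parental 0 h replicate 2 differed from the other 2 libraries of its group in a way that followed GC content. Across 10779 genes its deviation from the group mean had a Spearman rho of -0.682 with GC content, against 0.566 and 0.531 for the others. For deviations from the mean of all libraries, rho was 0.156 for replicate 2, and 0.575 and 0.544 for replicates 1 and 3. The values of replicates 1 and 3 were higher than that of any other library. Replicates 1 and 3 also differed from each other. Their chi-square per degree of freedom was 163, against 240 and 268 for their pairs with replicate 2 and at most 64.9 in other groups. With gene length, deviations from the group mean had a rho of -0.0984, 0.586 and -0.677 for replicates 1, 2 and 3. Which of the 3 libraries was unusual can therefore not be told. In the parental 0 h group REL varied most of the 10 genes, with a coefficient of variation of 83.4%. Its values are given with and without replicate 2. NFKBIZ came next at 31.8%, and BIRC3 had 17.7%. GC content of the longest annotated transcript is 38.7% for REL, 46.2% for NFKBIZ and 34.8% for BIRC3. Whether GC content accounts for the spread of REL was not tested.

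NF-kB is a family of transcription factors that work as dimers of RELA, RELB, c-REL (encoded by REL), p50 (made from NFKB1) and p52 (made from NFKB2). In resting cells the dimers are held in the cytoplasm by IkB proteins. Signals from tumour necrosis factor, interleukin-1 or Toll-like receptors lead to destruction of the IkB protein, and the freed dimers bind kappa-B sites in target genes. Many targets feed back on the pathway: NFKBIA makes a new IkB alpha that takes the dimers out of the nucleus, TNFAIP3 makes A20, which edits ubiquitin chains on signalling proteins, and NFKB2 and RELB make the dimer of the slower, non-canonical arm. In mammary epithelium the pathway is known for roles in branching, lobuloalveolar development and responses to infection.

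Promoters of the set show where such sites lie. RefSeq start-site windows were found for 9 of the 10 genes (13 windows, GRCh38.p14), and RELB was not matched. In the 250 bases before the start, searched on both strands, the 10-base kappa-B consensus occurred in 9 of the 13 windows (69.2%) and in 7 of the 9 genes, against 1828 of all 35116 RefSeq windows (5.21%) and 6.28% of all genes with a window. More than 1 match was found for NFKB2, REL, NFKBIZ, TNFAIP3 and BIRC3, and in NFKB2, REL and the second window of NFKBIZ, which is not printed, matches on opposite strands overlapped. The E-box CACGTG, the sequence bound by MYC and its partner MAX, occurred in 1 of the 13 windows (7.69%), that of TNFAIP3, against 6.34% of all windows. A match is a description of the letters and not a measurement of binding. The 6 sequences below are those of the genes on which the results turn most. They run 5′ to 3′ on the gene's own strand and end at the base before the start, and capitals mark the kappa-B consensus on either strand.
NFKBIA, chr14:35404750-35404999, minus strand: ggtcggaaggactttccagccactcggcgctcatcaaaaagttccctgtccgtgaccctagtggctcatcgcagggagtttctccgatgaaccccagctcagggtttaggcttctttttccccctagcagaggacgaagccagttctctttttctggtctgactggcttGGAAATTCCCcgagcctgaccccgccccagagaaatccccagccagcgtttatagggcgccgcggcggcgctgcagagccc
TNFAIP3, chr6:137867009-137867258, plus strand: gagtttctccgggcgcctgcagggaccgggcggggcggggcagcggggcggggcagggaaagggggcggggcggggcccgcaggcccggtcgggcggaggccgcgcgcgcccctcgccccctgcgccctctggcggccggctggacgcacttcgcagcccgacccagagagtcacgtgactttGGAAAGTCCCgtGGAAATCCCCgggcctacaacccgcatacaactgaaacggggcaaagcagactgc
BIRC3, chr11:102317234-102317483, plus strand: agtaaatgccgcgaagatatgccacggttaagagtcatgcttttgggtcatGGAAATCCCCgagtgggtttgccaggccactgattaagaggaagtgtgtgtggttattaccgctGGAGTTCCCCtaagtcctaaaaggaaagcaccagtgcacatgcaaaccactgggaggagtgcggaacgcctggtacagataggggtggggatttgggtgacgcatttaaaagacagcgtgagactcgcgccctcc
NFKBIZ, chr3:101827740-101827989, plus strand: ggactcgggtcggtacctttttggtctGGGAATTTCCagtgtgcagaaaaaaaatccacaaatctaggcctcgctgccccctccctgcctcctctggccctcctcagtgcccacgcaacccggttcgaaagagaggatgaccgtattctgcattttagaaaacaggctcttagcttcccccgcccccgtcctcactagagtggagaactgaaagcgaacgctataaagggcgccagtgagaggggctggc
NFKB1, chr4:102501109-102501358, plus strand: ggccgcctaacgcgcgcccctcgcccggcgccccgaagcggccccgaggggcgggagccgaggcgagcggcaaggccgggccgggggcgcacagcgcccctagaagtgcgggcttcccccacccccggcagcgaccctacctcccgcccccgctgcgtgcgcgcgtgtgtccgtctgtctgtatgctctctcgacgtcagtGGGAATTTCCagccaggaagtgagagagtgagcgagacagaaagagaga
TNFAIP2, chr14:103123211-103123460, plus strand: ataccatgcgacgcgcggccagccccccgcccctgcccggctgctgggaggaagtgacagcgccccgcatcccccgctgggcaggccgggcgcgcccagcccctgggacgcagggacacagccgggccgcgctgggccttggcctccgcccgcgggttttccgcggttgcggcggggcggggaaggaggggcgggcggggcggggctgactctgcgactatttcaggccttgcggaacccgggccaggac
The NFKBIA window holds 1 match, 81 to 72 bases before the start. TNFAIP3 holds 2, of which the nearer ends 46 bases before the start, and its E-box lies 78 to 73 bases before the start, next to them. BIRC3 holds 2 matches between 199 and 126 bases before the start, NFKBIZ 1 match at 223 to 214 bases, and NFKB1 1 match at 49 to 40 bases. TNFAIP2, printed because its level moved over the widest range of the set, holds no match in these letters, and neither does ICAM1. The search allowed no mismatch. The ICAM1 window, which is not printed, holds tggaaattcc, which differs from the consensus only in its first base.

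Before any 4-OHT was given, most of the set stood higher in the MYC-ER line than in the parental line. In untreated MYC-ER cells 9 of 10 genes were higher, where 31.6% of all genes tested were called higher, and NFKB1 alone was not called. Of these 9, 7 were higher by at least 2-fold, where 13.5% of all genes were. The largest difference was that of BIRC3, at 10.4-fold, and the median log2 difference of the 10 genes was 1.46, against 0 for all genes. After 4-OHT, 8 of the 10 genes had their lowest mean of all 8 groups in MYC-ER cells at 24 h, and REL had its lowest in untreated parental cells and NFKB1 in untreated MYC-ER cells. The highest mean was that of MYC-ER cells at 48 h for NFKB2, RELB, TNFAIP3, TNFAIP2 and ICAM1, at 0 h for REL, NFKBIA, NFKBIZ and BIRC3, and at 8 h for NFKB1. With the 8 group means put in order, none of the 7 neighbouring pairs overlapped in their libraries for BIRC3, 1 did for TNFAIP3, 2 for NFKBIA and TNFAIP2, 3 for RELB, 4 for NFKB2, REL, NFKBIZ and ICAM1, and 5 for NFKB1. No shares of all genes are given beside these lowest and highest groups and overlaps, so they describe the 10 genes only. Group means of MYC-ER cells spanned up to 26.7-fold (TNFAIP2). Those of parental cells spanned at most 1.91-fold, except for REL, whose parental span of 2.94-fold was wider than its MYC-ER span of 2.72-fold and came to 5.68-fold without parental 0 h replicate 2. Without that library 3 of the 7 neighbouring pairs overlapped for REL, NFKB2, NFKBIZ and ICAM1, and the largest parental span of the other 9 genes was 2.11-fold (BIRC3). Both parental spans of REL rest on its low values in parental 0 h replicates 1 and 3. Deviations of these libraries from the mean of all libraries followed GC content most (rho 0.575 and 0.544).

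**Figure D1:**
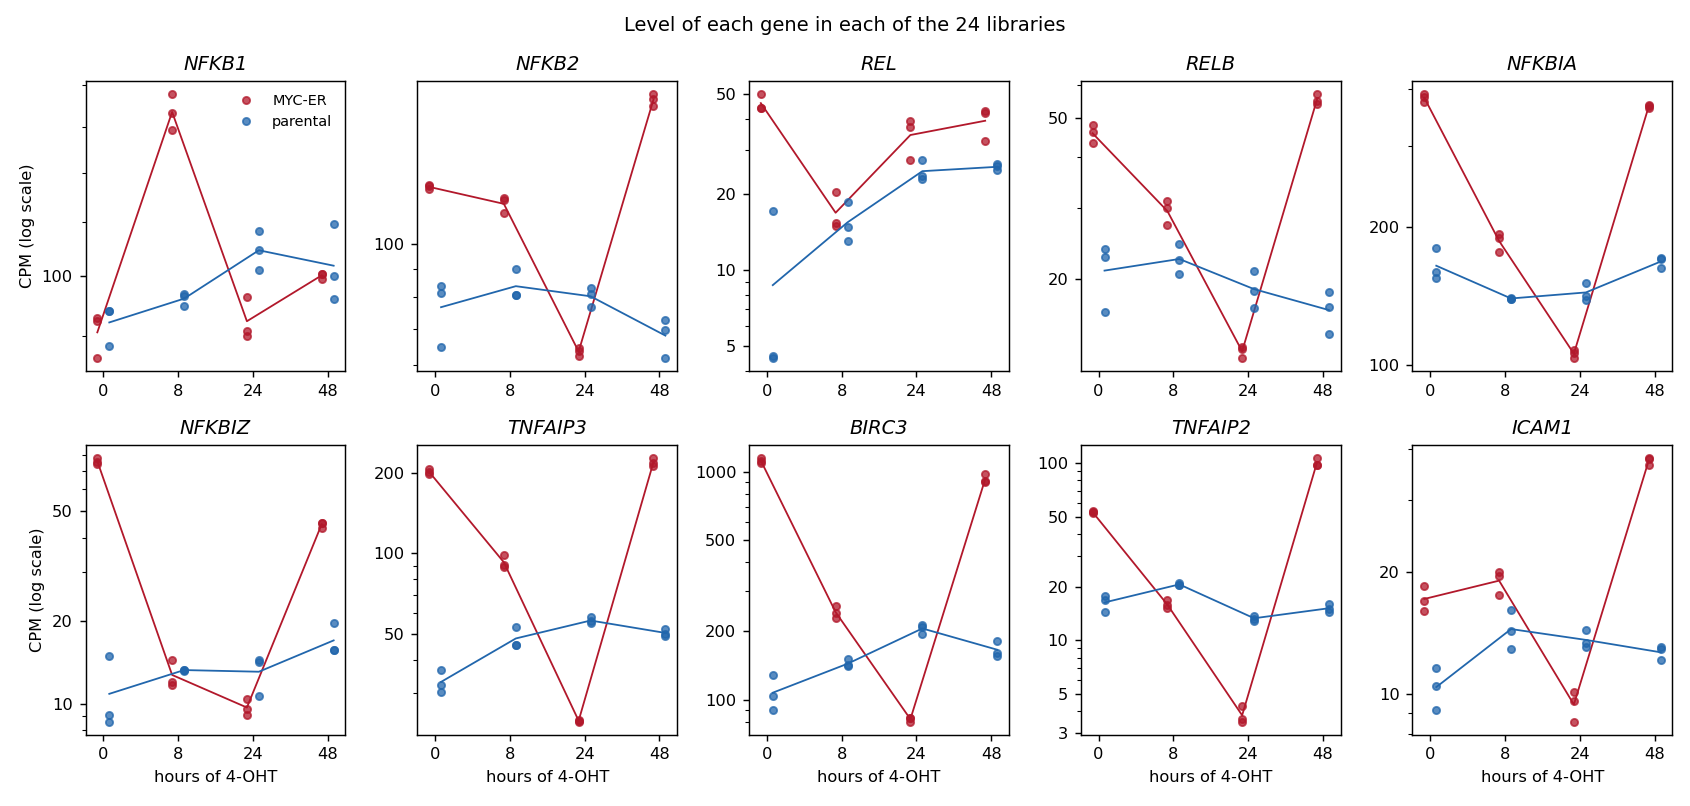
Level of each of the 10 genes (CPM, log axis, each panel with its own range) against hours of 4-OHT (0, 8, 24 and 48, drawn at equal steps). Each point is 1 of the 24 libraries (red, MYC-ER; blue, parental) and lines join the means of 3; most red lines fall to 24 h and return at 48 h (BIRC3 from 1117 to 82.5 and 926 CPM), while blue lines span less than red ones for every gene but REL (2.94-fold in parental and 2.72-fold in MYC-ER cells).

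At 8 h of 4-OHT in MYC-ER cells, 7 of the 10 genes fell, 1 rose and 2 were not called. Over all genes tested 35.4% were called lower and 32.2% higher. By at least 2-fold, 6 members fell, where 19.6% of all genes did. The fall was largest for NFKBIZ (log2 change -2.58) and BIRC3 (-2.20), and the gene that rose was NFKB1 (0.56). The median log2 change of the set was -1.08, against -0.10 for all genes.

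By 24 h the fall had deepened. Against 0 h, 8 of 10 genes were lower and none was higher, where 31.2% of all genes were called lower and 30.4% higher, and 7 were lower by at least 2-fold, where 12.2% of all genes were. The median log2 change was -1.82, against -0.02 for all genes. Between 8 and 24 h 9 genes fell and 1, REL, rose, where 27.1% of all genes fell and 28.4% rose. TNFAIP2, BIRC3 and TNFAIP3 were 14.1-fold, 13.5-fold and 8.49-fold below their untreated levels.

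Between 24 and 48 h the direction turned. Over this step 9 of 10 genes rose, where 28.2% of all genes did, and 8 rose by at least 2-fold, where 10.9% of all genes did. The median log2 change was 2.02, against 0.06 for all genes. Set against 0 h, the 48 h cultures had 5 genes higher (NFKB1, NFKB2, RELB, TNFAIP2 and ICAM1), 2 lower (NFKBIZ and BIRC3) and 3 not called (REL, NFKBIA and TNFAIP3), where 23.4% of all genes were higher and 20.7% lower. This last count went from 7 called to 4 without MYC-ER 48 h replicate 1. In these bulk libraries, fewer cells with a transcript and less of it per cell cannot be told apart.

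**Figure D2:**
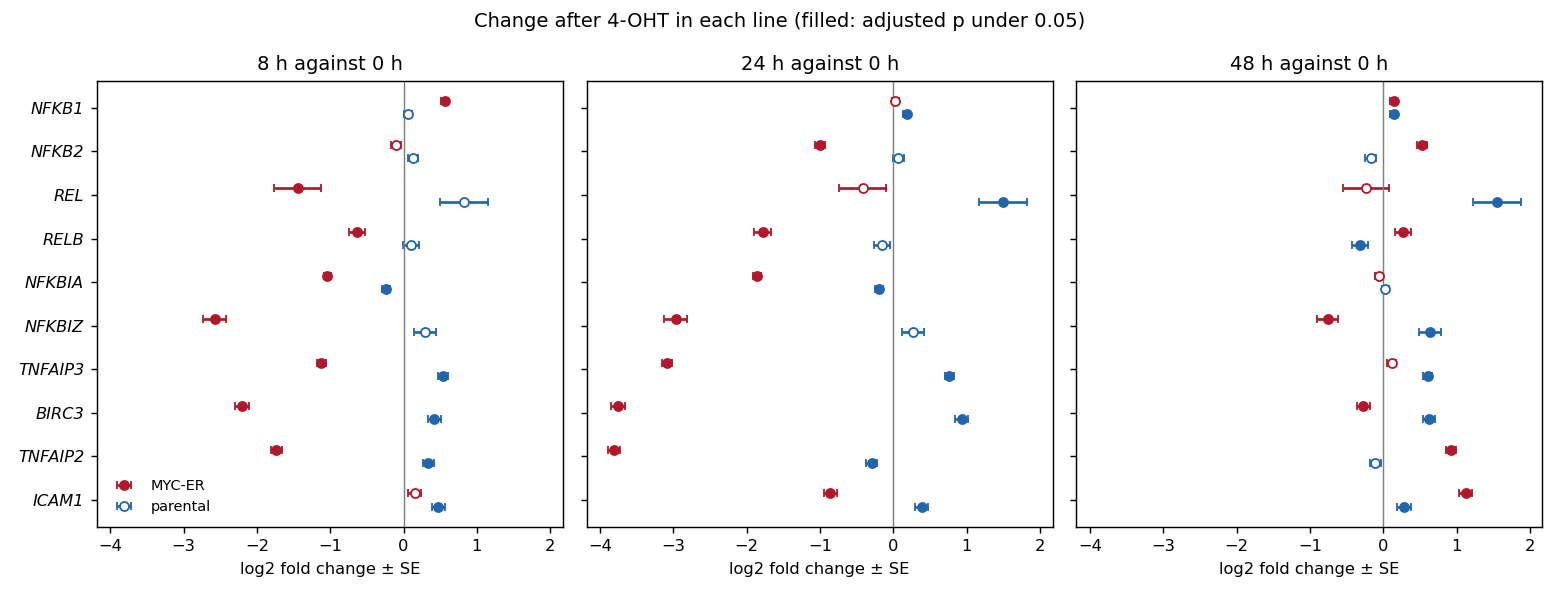
log2 fold change ± SE of each gene against 0 h of the same line at 8, 24 and 48 h of 4-OHT, from the edgeR fit across all genes (red, MYC-ER; blue, parental; 3 libraries per group). Filled points have an adjusted p under 0.05; at 24 h red points reach -3.81 (TNFAIP2), whereas blue points lie between -0.30 (TNFAIP2) and 1.50 (REL, 2.45 without parental 0 h replicate 2).

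The subunit genes did not move together. NFKB1 encodes p105, the precursor of p50. Its level in untreated MYC-ER cells was 92.8, 92.3 and 86.5 CPM, and at 8 h it was 138, 129 and 133 CPM. It then stood at 96.3, 89.9 and 90.8 CPM at 24 h and at 100.4, 100.4 and 99.5 CPM at 48 h. All 3 libraries at 8 h lay above every other library of both lines, and the libraries of the other groups lay between 86.5 and 109.6 CPM. NFKB1 rose by 0.56 ± 0.05 (log2 change ± SE, adjusted p = 1.12e-09 by edgeR's quasi-likelihood test) at 8 h and fell by 0.53 on the log2 scale between 8 and 24 h. Its rise at 48 h against 0 h was small (0.15, adjusted p = 0.0194). It was lost without MYC-ER 0 h replicate 3 (0.11, adjusted p = 0.114) and without MYC-ER 48 h replicate 1 or 2 (adjusted p = 0.0535 and 0.0536). The step from 24 to 48 h (0.12, adjusted p = 0.049) was lost without any 1 of 5 of the 6 libraries, MYC-ER 24 h replicates 2 and 3 and MYC-ER 48 h replicates 1, 2 and 3, with adjusted p from 0.0867 to 0.171.

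NFKB2 encodes p100, the precursor of p52, and RELB encodes the subunit that pairs with it. NFKB2 stood at 128, 128 and 126 CPM in untreated MYC-ER cells, at 121, 114 and 120 CPM at 8 h, at 63.6, 64.6 and 62.5 CPM at 24 h, and at 185, 179 and 188 CPM at 48 h. No 2 of these 4 groups overlapped. The change at 8 h was not called (-0.10, adjusted p = 0.217), although it was with scaling by library size alone or by the upper quartile and with GC and length trends removed. NFKB2 fell by 1.00 ± 0.07 at 24 h and rose by 0.53 ± 0.07 at 48 h (log2 change against 0 h ± SE, adjusted p = 8.79e-11 and 3.49e-06). RELB had the same order of MYC-ER groups: 46.0, 43.3 and 47.9 CPM at 0 h, 31.1, 27.2 and 29.9 CPM at 8 h, 13.6, 13.4 and 12.8 CPM at 24 h, and 57.1, 53.9 and 54.9 CPM at 48 h. It fell by 0.64 at 8 h and by 1.78 at 24 h on the log2 scale (adjusted p = 2.23e-05 and 5.4e-12). At 24 h both genes were lowest of the 8 groups, RELB below every parental library and NFKB2 overlapping parental 48 h. The excess of RELB at 48 h over 0 h (0.27, adjusted p = 0.044) was lost whichever of the 6 libraries was left out, with adjusted p from 0.0564 to 0.146.

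REL, which encodes c-REL, followed another course. In MYC-ER cells it stood at 44.0, 49.9 and 44.2 CPM at 0 h, at 15.4, 20.4 and 15.03 CPM at 8 h, at 38.9, 27.4 and 36.9 CPM at 24 h, and at 32.5, 42.2 and 42.9 CPM at 48 h. It was lowest at 8 h, where its 3 libraries lay below all other MYC-ER libraries, and it rose again by 1.02 ± 0.32 between 8 and 24 h (log2 change ± SE, adjusted p = 0.00985). It fell by 1.44 ± 0.32 at 8 h (adjusted p = 0.000473), and its changes at 24 h (-0.42, adjusted p = 0.262) and 48 h (-0.23, adjusted p = 0.596) were not called. In untreated parental cells REL stood at 4.57, 17.2 and 4.50 CPM, the second value being that of replicate 2. The difference between untreated lines was 2.39 ± 0.34 on the log2 scale, and 3.34 without that library. In GENCODE v29 the REL locus overlaps 2 non-coding genes on its own strand, so its counts are uncertain to that extent.

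The inhibitor genes fell early. NFKBIA encodes IkB alpha, which captures dimers in the nucleus and returns them to the cytoplasm. It stood at 384, 375 and 390 CPM in untreated MYC-ER cells, at 189, 177 and 193 CPM at 8 h, at 108, 106 and 104 CPM at 24 h, and at 363, 367 and 369 CPM at 48 h. The 24 h libraries lay below all other libraries of both lines, while those at 48 h lay just below those at 0 h. NFKBIA fell by 1.04 ± 0.05 at 8 h and by 1.86 ± 0.05 at 24 h (log2 change ± SE, adjusted p = 7.75e-14 and 6.16e-18), and the difference at 48 h was -0.06 (adjusted p = 0.336). That last difference was -0.15 (adjusted p = 0.0119) after removal of the GC trend.

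NFKBIZ encodes IkB zeta, an atypical IkB protein that acts in the nucleus on secondary response genes. It stood at 78.0, 75.5 and 73.9 CPM at 0 h and had dropped to 12.01, 14.5 and 11.7 CPM by 8 h. It stayed low at 24 h (9.12, 9.55 and 10.4 CPM) and stood at 43.6, 45.4 and 45.4 CPM at 48 h. Most of its fall was therefore complete at 8 h (-2.58 ± 0.16, log2 change ± SE, adjusted p = 2.44e-12), and the further fall to 24 h (-0.39, adjusted p = 0.0319) was lost with scaling by library size alone or the upper quartile, and without MYC-ER 8 h replicate 2 or MYC-ER 24 h replicate 1 or 2. At 48 h it was still 1.69-fold below 0 h (adjusted p = 0.000216), with no overlap of libraries. At 8 and 24 h its MYC-ER libraries overlapped parental libraries at 0 h.

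BIRC3 and TNFAIP3 encode 2 ubiquitin-editing regulators of the pathway. BIRC3, which encodes cIAP2, a ubiquitin ligase at the tumour necrosis factor receptor, stood at 1094, 1148 and 1111 CPM in untreated MYC-ER cells, at 240, 258 and 229 CPM at 8 h, at 83.8, 80.5 and 83.1 CPM at 24 h, and at 901, 906 and 971 CPM at 48 h. No 2 of these groups overlapped, and the 24 h libraries lay below every parental library. BIRC3 fell by 2.20 ± 0.09 at 8 h and by 3.76 ± 0.10 at 24 h (log2 change ± SE, adjusted p = 2.69e-15 and 9.86e-19). At 48 h it was 1.21-fold below 0 h (adjusted p = 0.0136), a call lost with scaling by library size alone (-0.11, adjusted p = 0.42) and without MYC-ER 48 h replicate 1 (-0.25, adjusted p = 0.05).

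TNFAIP3, the gene of A20, stood at 206, 200 and 198 CPM at 0 h, at 89.3, 90.2 and 98.4 CPM at 8 h, at 23.9, 23.6 and 23.7 CPM at 24 h, and at 217, 212 and 227 CPM at 48 h. The 3 libraries at 24 h were nearly alike and lay below all others, parental ones included. TNFAIP3 fell by 1.12 ± 0.06 at 8 h and by 3.09 ± 0.07 at 24 h (log2 change ± SE, adjusted p = 8.07e-13 and 9.3e-20), and rose 9.21-fold from 24 to 48 h. Its level at 48 h lay above that at 0 h in all 3 libraries, but the difference of 0.12 was not called (adjusted p = 0.14). It was called with scaling by library size alone (0.28, adjusted p = 0.00232) or the upper quartile (0.16, adjusted p = 0.0344), and with only the 2 groups compared in the fit (0.13, adjusted p = 0.00742). An antisense gene overlaps TNFAIP3, and 2 overlap ICAM1, and whether counting used strand is not given, so reads of these neighbours cannot be told apart.

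TNFAIP2 and ICAM1 stand for the target genes outside the feedback loop. TNFAIP2 encodes M-Sec, a protein of membrane protrusions that tumour necrosis factor induces. It stood at 53.1, 52.6 and 53.5 CPM at 0 h, at 15.7, 15.2 and 16.8 CPM at 8 h, at 3.60, 3.48 and 4.25 CPM at 24 h, and at 97.3, 97.6 and 107 CPM at 48 h. This was the widest range of the set, 26.7-fold between 24 and 48 h, and no 2 MYC-ER groups overlapped. TNFAIP2 fell by 1.74 ± 0.07 at 8 h and by 3.81 ± 0.08 at 24 h, and rose above its untreated level at 48 h by 0.93 ± 0.07 (log2 change ± SE, adjusted p = 5.61e-15, 5.05e-20 and 6.09e-10).

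ICAM1 encodes an adhesion molecule that binds leukocyte integrins. It stood at 17.0, 18.4 and 16.0 CPM at 0 h, at 19.5, 17.6 and 20.01 CPM at 8 h, at 9.62, 10.1 and 8.57 CPM at 24 h, and at 37.8, 36.5 and 38.1 CPM at 48 h. The 0 and 8 h groups overlapped, and the change at 8 h was not called (0.15, adjusted p = 0.143). It was called with the fit limited to the 2 groups compared (0.18, adjusted p = 0.0346) and after removal of the GC trend (0.23, adjusted p = 0.0134). ICAM1 fell by 0.86 ± 0.09 at 24 h and rose by 1.13 ± 0.09 at 48 h against 0 h (log2 change ± SE, adjusted p = 2.63e-08 and 9.28e-10). The libraries at 48 h were the highest of all 24.

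Per kilobase of exon, which allows levels of different genes to be compared, NFKBIA and BIRC3 led in untreated MYC-ER cells at 161 ± 3.26 and 149 ± 3.71 CPM per kb (SD, n = 3). TNFAIP3 followed at 39.9 ± 0.744 and NFKB2 at 28.4 ± 0.225 CPM per kb, and REL was lowest at 3.50 ± 0.256. At 24 h the order had changed: NFKBIA still led at 44.6 ± 0.879 CPM per kb, but NFKB1 (14.8 ± 0.556) and NFKB2 (14.2 ± 0.233) came next, ahead of BIRC3 (11.0 ± 0.236). In untreated parental cells NFKBIA led as well, at 69.4 ± 5.65 CPM per kb, followed by NFKB2 (17.1 ± 2.28), NFKB1 (14.7 ± 0.526) and BIRC3 (14.3 ± 2.54). There NFKB2 and NFKB1 stood ahead of TNFAIP3 (6.56 ± 0.635), which led them in untreated MYC-ER cells.

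Parental cells, which lack the fusion, were given the same 4-OHT course and serve as its control. At 8 h 4 genes were called higher and 1 lower, where 15% of all genes were called higher and 16% lower. At 24 h the counts were 5 higher and 2 lower (21.2% and 21.7% of all genes), and at 48 h 6 higher and 1 lower (20.4% and 20.1%). The median log2 change of the set was 0.31, 0.22 and 0.21 at the 3 times, and those of all genes lay between -0.03 and 0. These counts fell to 1, 3 and 3 of the 10 genes when only the 2 groups compared entered the fit, so that their spread was not shared with the other groups.

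TNFAIP3, BIRC3 and ICAM1 were called higher at all 3 times. With only the 2 groups compared in the fit, at most 1 of these 3 genes was still called at 8 h. For ICAM1 the call at 48 h (0.28, adjusted p = 0.0144) was lost without parental 0 h replicate 2 (0.20, adjusted p = 0.0797). TNFAIP3 stood at 32.3, 36.7 and 30.4 CPM in untreated parental cells, at 45.7, 45.5 and 53.2 CPM at 8 h, at 55.8, 57.7 and 54.9 CPM at 24 h, and at 50.1, 49.2 and 52.1 CPM at 48 h. All treated libraries lay above all untreated ones, and the log2 change at 24 h was 0.76 ± 0.06 (SE, adjusted p = 4.46e-08). BIRC3 stood at 104, 128 and 90.7 CPM at 0 h and at 209, 214 and 194 CPM at 24 h, a log2 change of 0.93 ± 0.09 (SE, adjusted p = 1.55e-07). With GC and length trends removed, the BIRC3 calls at 8 h and 48 h were lost (0.11 and 0.13, adjusted p = 0.121 and 0.0621). In MYC-ER cells TNFAIP3 and BIRC3 moved the other way at 8 and 24 h.

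The other parental changes were smaller or hung on the untreated group. REL went from 4.57, 17.2 and 4.50 CPM to 13.1, 18.6 and 14.8 CPM at 8 h, 23.7, 23.1 and 27.4 CPM at 24 h and 25.9, 24.9 and 26.4 CPM at 48 h. The log2 change was 0.83 (adjusted p = 0.059) at 8 h, 1.50 (adjusted p = 0.000819) at 24 h and 1.56 (adjusted p = 0.000666) at 48 h. Without parental 0 h replicate 2 the 3 changes were 1.77 (adjusted p = 8.32e-08), 2.45 and 2.50. That leaves replicates 1 and 3, whose deviations from the mean of all libraries followed GC content most (rho 0.575 and 0.544). Neither set of REL values can therefore be preferred. The call of REL at 24 h was lost with only the 2 groups compared in the fit (adjusted p = 0.0501). NFKBIZ stood at 9.13, 14.8 and 8.61 CPM at 0 h and was called higher at 48 h (19.6, 15.7 and 15.6 CPM, log2 change 0.64, adjusted p = 0.00155). For the GC-rich genes the parental direction depended on the GC trend. RELB was called lower at 48 h (-0.32, adjusted p = 0.0215) and TNFAIP2 at 24 h (-0.30, adjusted p = 0.00216). After removal of the GC trend both values were 0.06 (adjusted p = 0.556 and 0.685). NFKBIA was called lower at 8 and 24 h (-0.24 and -0.19), and neither call was made with GC and length trends removed (-0.08 and 0.08, adjusted p = 0.187 and 0.201).

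Set beside parental cells at the same time, the MYC-ER line crossed from above to below and back. At 8 h 7 genes were higher in MYC-ER cells, 1 (TNFAIP2) was lower and 2 (REL and NFKBIZ) were not called, where 23.1% of all genes were higher and 25.5% lower. At 24 h 9 genes were lower and none was higher, where 25.8% of all genes were lower, and REL was not called (0.48, adjusted p = 0.229). At 48 h 8 genes were higher, all by at least 2-fold, where 27.3% of all genes were called higher and 12.6% higher by at least 2-fold. The differences at 24 h were largest for TNFAIP2 (-1.82 ± 0.08), BIRC3 (-1.32 ± 0.09) and TNFAIP3 (-1.24 ± 0.06, log2 ± SE), and those of the other 6 genes lay between -0.53 and -0.18. The call of NFKB1 at 24 h (-0.18, adjusted p = 0.00387) was lost with scaling by library size alone or the upper quartile (adjusted p = 0.352 and 0.121). That of NFKBIZ (-0.43, adjusted p = 0.0215) was lost with the same scalings (adjusted p = 0.139 and 0.0701) and without MYC-ER 24 h replicate 1 or 2 (adjusted p = 0.074 and 0.0572).

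**Figure D3:**
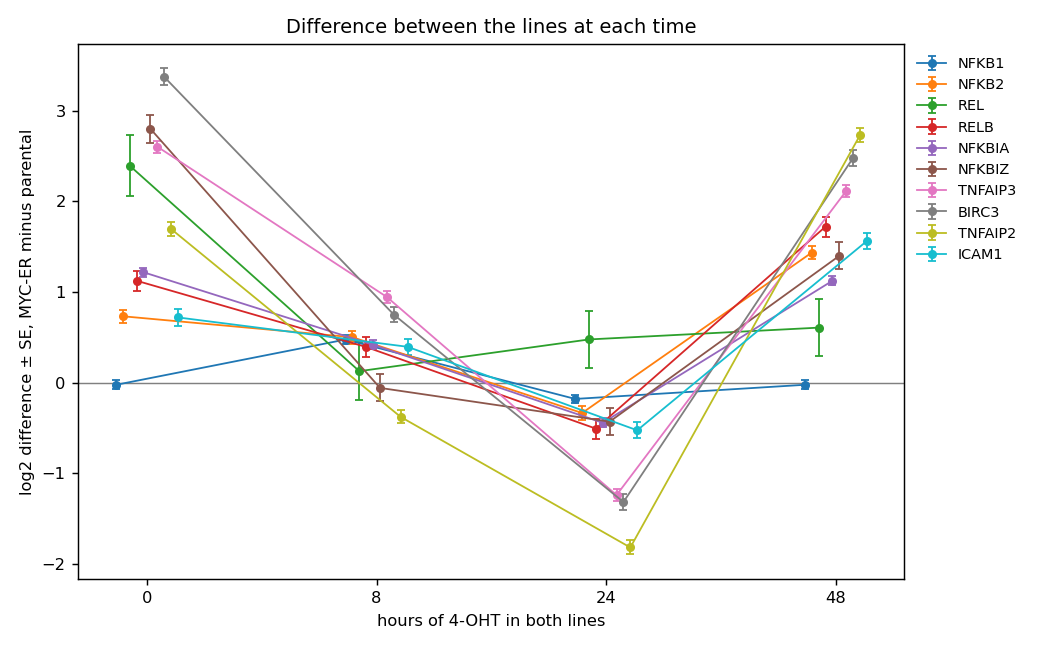
log2 difference ± SE, MYC-ER minus parental, of each of the 10 genes at 0, 8, 24 and 48 h of 4-OHT in both lines, from the edgeR fit (3 libraries per group). At 0 h 9 of the 10 lie above 0 (up to 3.38, BIRC3), at 24 h 9 lie below (down to -1.82, TNFAIP2), and at 48 h 8 are called higher (up to 2.73, TNFAIP2).

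The interaction of line and time tested directly whether the lines differed in their log2 change against 0 h. It is the change in MYC-ER cells minus that in parental cells, so a negative value can come from a larger fall, a smaller rise or changes in opposite directions. At 8 h it was negative for 8 genes and positive for 1 (NFKB1), where 27.8% of all genes were called lower and 27.3% higher. Among the 8, TNFAIP3, BIRC3 and TNFAIP2 fell in MYC-ER cells and rose in parental cells, and NFKBIA fell in both (-1.04 and -0.24). At 24 h the interaction was negative for 9 genes, all by at least 2-fold, where 26.8% of all genes were called lower and 11.2% by at least 2-fold. The largest difference of responses was that of BIRC3 at 24 h, -4.69 ± 0.13 on the log2 scale (SE, adjusted p = 7.78e-18), followed by TNFAIP3 (-3.85 ± 0.09) and TNFAIP2 (-3.52 ± 0.11). At 48 h it was positive for 4 genes (NFKB2, RELB, TNFAIP2 and ICAM1) and negative for 4 (REL, NFKBIZ, TNFAIP3 and BIRC3), where 23.6% of all genes were called higher and 21.4% lower. Of the latter, NFKBIZ and BIRC3 fell in MYC-ER cells (-0.76 and -0.27) and rose in parental cells (0.64 and 0.63), while REL and TNFAIP3 rose in parental cells and were not called in MYC-ER cells. The call of ICAM1 at 8 h (-0.32, adjusted p = 0.0341) was lost with DESeq2 size factors, with no filter on low counts, with only the groups compared in the fit, and without MYC-ER 0 h replicate 1 or 2, MYC-ER 8 h replicate 2, parental 0 h replicate 2 or parental 8 h replicate 3 (adjusted p from 0.05 to 0.126). That of RELB at 48 h (0.60, adjusted p = 0.00303) was lost after removal of the GC trend (0.17, adjusted p = 0.189). All comparisons of a line with its own 0 h group share those 3 untreated libraries.

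The rest of the pathway was read from 9 lists with 90 genes, of which 86 passed the filter. At 8 h in MYC-ER cells 40 of the 86 were higher and 29 lower, where 32.2% of all genes were higher and 35.4% lower, and their median log2 change was 0.19 against -0.10 for all genes. At 24 h 22 were higher and 49 lower, where 30.4% of all genes were higher and 31.2% lower (median -0.43, against -0.02 for all genes). At 48 h 32 were higher and 18 lower, where 23.4% of all genes were higher and 20.7% lower (median 0.14, against 0.03 for all genes). The same shares of all genes are the background of the counts for single lists that follow. RELA, which encodes the p65 subunit, the main activating partner of p50, moved little. In MYC-ER cells it averaged 75.9 CPM untreated and 93.3, 59.9 and 65.1 CPM after 8, 24 and 48 h (log2 changes of 0.30, -0.34 and -0.22, adjusted p = 3.26e-05, 6.09e-06 and 0.0014).

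Among the other IkB proteins, BCL3 and NFKBIE were higher at 8 h, lower at 24 h and higher at 48 h (BCL3 log2 changes of 0.91, -1.39 and 0.86). Of the 6 genes of the IkB kinase complex and related kinases, 4 were lower and 1 higher at 24 h, where 31.2% of all genes were lower and 30.4% higher. Among the lower ones were IKBKB, a catalytic subunit (112 CPM at 0 h, 61.4 at 24 h), and IKBKE (26.6 CPM at 0 h, 11.5 at 24 h, 50.7 at 48 h). The higher one was CHUK, the other catalytic subunit (23.2 CPM at 0 h, 31.6 at 24 h, log2 change 0.44, adjusted p = 4.47e-05). A list of 10 genes held ubiquitin ligases, deubiquitinases and proteins that work with them, and 6 were higher and 3 lower at 8 h. Of this list CYLD, a deubiquitinase that restrains the pathway as A20 does, fell the most, from 225 CPM to 68.7 at 8 h and 47.0 at 24 h. Its difference at 48 h was -0.08 (adjusted p = 0.294). TNIP1 and TNIP2, adaptors that bind A20, rose at 8 h by 0.99 and 1.04 on the log2 scale.

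Upstream receptors and ligands diverged. IL1R1, the signalling receptor of interleukin-1, fell from 271 CPM at 0 h to 28.8 at 8 h and 9.40 at 24 h and stood at 49.4 CPM at 48 h, all 3 changes being called. TNFRSF12A, the receptor of TWEAK, rose from 13.03 to 199 CPM at 8 h and stood at 29.4 CPM at 24 h. Of the 12 receptors tested, 7 were higher and 4 lower at 8 h (32.2% and 35.4% of all genes), and 4 were higher and 6 lower at 24 h (30.4% and 31.2% of all genes). Among those higher at 8 h, TLR4 was barely detected, at a mean of 0.0118 CPM, and TLR2 was low, at 0.425 CPM. Of the 8 ligands, 7 were higher at 48 h (23.4% of all genes), with a median log2 change of 1.41, against 0.03 for all genes. The largest changes, those of LTB (3.53) and TNF (2.03), were at low levels, with means of 0.141 and 0.747 CPM at 48 h. IL1RN, the interleukin-1 receptor antagonist, was higher at all 3 times (log2 changes of 2.48, 1.27 and 1.39). IRAK2, a kinase of the interleukin-1 and Toll-like receptor pathway, rose from 0.470 to 17.5 CPM at 8 h.

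Other NF-kB targets did not all follow the 10 genes at 8 h. Of the 11 chemokine and cytokine targets, 6 were higher at 8 h and 2 lower, and at 24 h 4 were higher and 5 lower. Among those higher at 8 h, CXCL5 and CSF2 were barely detected, at means of 0.0349 and 0.0861 CPM. Of those higher at 24 h, CSF2 was barely detected, at a mean of 0.023 CPM with counts from 0 to 11. CXCL8 and CCL5 were also low at 24 h, at means of 0.432 and 0.64 CPM. CXCL1 and CXCL2, neutrophil chemokines, fell at 8 h and further at 24 h (CXCL2 from 21.9 to 5.18 and 1.45 CPM). CSF3, the granulocyte growth factor, rose at 8 h from 3.42 to 95.1 CPM. Among the 18 other targets tested, 9 were lower and 6 higher at 8 h, and 12 were lower and 4 higher at 24 h. SOD2, the mitochondrial superoxide dismutase, averaged 6512 CPM in untreated MYC-ER cells and 827, 257 and 4133 CPM after 8, 24 and 48 h, against 358 CPM in untreated parental cells. GENCODE v29 gives the name SOD2 to 2 rows, and the values are those of the row with the lower accession, so they are uncertain to that extent. IER3, an immediate early gene, went the other way at 8 h, from 5.37 to 140 CPM.

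Likeness of patterns over the 24 libraries was described by Pearson's r of log2 CPM, without a test, since the libraries share line and time. Among the 10795 genes that reached a mean of 10 CPM in some group, TNFAIP3 and BIRC3 were each other's most similar gene (r = 0.98), and so were NFKB2 and RELB (r = 0.97). NFKB2 was also the gene most similar to ICAM1 (r = 0.94). CYLD was second for NFKBIZ (r = 0.97), after ERO1B (r = 0.98), and CXCL2 was first for TNFAIP2 (r = 0.97). The genes most like NFKBIA were UBA7 (r = 0.98) and SIN3B (r = 0.98), those most like REL were UBXN7 (r = 0.97) and PUM2 (r = 0.96), and those most like NFKB1 were ZNF697 (r = 0.93) and PSD4 (r = 0.92). Within the 12 MYC-ER libraries NFKBIA and BIRC3 had r = 0.997, and within the 12 parental libraries r = -0.393.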

How the data were processed

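The deposited table holds raw counts per gene (60668 rows), made by the authors. The submitters' processing notes name Trimmomatic 0.39, STAR, StringTie 2.1.3b and GRCh38, with no role or order. The counting rule, use of strand and annotation are not given in the sources used here, and if StringTie made the counts they are estimates. Each column was matched to its sample by title. Libraries held 136860029 to 182438505 counts. Gene names came from the supplied name table (60340 rows), and 286 further rows were named by GENCODE v29. Gene lengths and GC content came from GENCODE v29, and promoter sequences from RefSeq (GRCh38.p14).

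edgeR 4.0.16 (R 4.3.3) was run on the counts of all 24 libraries in 1 model of 8 groups, with filterByExpr, TMM scaling, glmQLFit and glmQLFTest. Benjamini-Hochberg adjusted p-values over 22158 genes below 0.05 were called, per comparison. The scripts were tested on simulated data. Each gene's groups do not overlap when every library of one lies above every library of the other.

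The 10 genes and all lists were chosen with earlier results of these data known. Named besides them were RELA and, per list and time, up to 3 called genes with the largest change and a mean of at least 10 CPM. Values of such genes at other times are quoted to complete their course. Marker lists covered epithelial, fibroblast, leukocyte and endothelial cells. Alternatives were scaling by library size, upper quartile or DESeq2 size factors, DESeq2 1.42.0, other filters, fits of only the groups compared, a replicate block and leaving out each library. Removal of trends on GC content, or GC content and length (lowess, 98% of tested genes), and reading REL without parental 0 h replicate 2 were added after seeing the data.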

Additional observations from a re-analysis of the deposited data

Results flagged for a closer look

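For 26 gene and time pairs the response to 4-OHT (log2 change against 0 h) differed between the lines, tested as the interaction of line and time in edgeR's fit. The values are log2 differences of responses, MYC-ER minus parental.

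At 8 h the difference was 0.50 for NFKB1, the only positive one. It was -2.86 for NFKBIZ, -2.62 for BIRC3, -2.27 for REL, -2.08 for TNFAIP2 and -1.66 for TNFAIP3. Smaller ones were -0.80 for NFKBIA, -0.73 for RELB and -0.32 for ICAM1.

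At 24 h all 9 called differences were negative. The largest were -4.69 for BIRC3, -3.85 for TNFAIP3, -3.52 for TNFAIP2 and -3.23 for NFKBIZ, followed by -1.92 for REL, -1.66 for NFKBIA, -1.63 for RELB, -1.25 for ICAM1 and -1.07 for NFKB2.

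At 48 h the signs were mixed. They were positive for TNFAIP2 (1.03), ICAM1 (0.84), NFKB2 (0.70) and RELB (0.60), and negative for REL (-1.79), NFKBIZ (-1.40), BIRC3 (-0.90) and TNFAIP3 (-0.49). The 3 REL values rest partly on the untreated parental group, and without parental 0 h replicate 2 they were -3.22, -2.87 and -2.74 at 8, 24 and 48 h.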

How the results depend on the processing

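Over 1500 values of the 10 genes under alternatives other than leaving out a library, 1399 kept their direction and side of the threshold, 38 lost a call, 38 gained one and 10 reversed, and 15 uncalled values changed sign without a call. Reversed were NFKB1 between the lines at 48 h (0.12 with library size alone, 0.12 with upper quartile scaling) and, in parental cells against 0 h, NFKB2 at 48 h (0.15 with the GC trend removed, 0.12 with GC and length trends), RELB at 24 h (0.30, 0.34) and 48 h (0.0632, 0.11), TNFAIP2 at 24 h (0.0557 with the GC trend removed) and NFKBIA at 24 h (0.0783 with GC and length trends). The cause was not tested. With only the groups compared, parental calls at 8, 24 and 48 h numbered 1452, 4923 and 3274 of all genes and 1, 3 and 3 of the 10 genes, against 6870, 9503 and 8978, and 5, 7 and 7; this fit has fewer samples. Leaving out a library left 4 to 6 of the 10 genes called for MYC-ER 48 h against 0 h, where 7 were. Of 1080 such values 33 lost a call, 16 gained one and none reversed.

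Scaling by library size alone moved the all-gene median by up to 0.26 on the log2 scale (24 h against 8 h in MYC-ER cells) and raised the higher share of calls from 51.2% to 67.8% there, from 53% to 73.8% at 48 h against 0 h, from 47.6% to 60.7% and from 48.2% to 59.8% between the lines at 24 and 48 h, and from 52.5% to 63.5% for the interaction at 48 h. Upper quartile scaling gave 58.4% and 59.7% between the lines at 24 and 48 h.

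Replicate numbers did not pair the libraries: correlations of deviations lay between -0.0776 and 0.0943, and 0 of 28 group pairs had all 3 above 0.1. With the replicate block 2 calls of the 10 genes changed, NFKB1 at 48 h against 24 h in MYC-ER cells (0.12, adjusted p = 0.0585) and REL at 8 h in parental cells (0.90, adjusted p = 0.0347).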
